A study of Homo sapiens with 6 samples.

Results

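The genes described here are those of the ABC (ATP-binding cassette) transporter family whose names in the deposited table consist of ABC, a subfamily letter from A to G and a number. Of 57281 rows in the table, 46 carried such a name, and 28 of the 46 had at least 10 normalized counts in 3 or more of the 6 libraries and were tested, among 17296 genes tested in all. Family members that bear other symbols, TAP1, TAP2 and CFTR, were kept apart from the 46 and are given beside them.

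ABC proteins bind and hydrolyse ATP at paired nucleotide-binding domains, and most of them use that energy to move a substrate across a membrane. Subfamily A moves lipids, subfamily B peptides, drugs, haem and iron-sulfur intermediates, subfamily C organic anions and glutathione conjugates, subfamily D fatty acyl-CoA and cobalamin, and subfamily G sterols and drugs. The proteins of subfamilies E and F have no membrane-spanning part and act at the ribosome. In the epidermis the family is best known for ABCA12, which loads glucosylceramides into the lamellar bodies that build the skin's lipid barrier, and whose loss causes harlequin ichthyosis.

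The cell line was HaCaT, keratinocytes of human skin that became immortal spontaneously. TGF-β1 (transforming growth factor β1) was present in every culture, at 10 ng/ml for 24 h. It acted alone in 3 biological replicates and together with silymarin in another 3. Silymarin is a flavonolignan extract of milk thistle and was used at 31.25 µg/ml. No culture lacking TGF-β1 is among the 6 libraries, and each comparison is of silymarin on top of that factor.

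Values are read counts divided by a size factor per library, termed normalized counts. Reads recovered from the table numbered 20240542 to 30279391 in 5 libraries, and TGF-β1 replicate 3 was left out of count tests. All 13 keratinocyte markers examined were measured, and their sum ran from 503465 to 510770 normalized counts with TGF-β1 alone and from 318297 to 355564 with silymarin. Of the markers of other cell types, 2 of 9 for fibroblasts, 2 of 7 for melanocytes, 1 of 7 for immune cells, 2 of 6 for endothelial cells and 0 of 5 for hepatocytes were measured. The summed fibroblast markers ran from 3369 to 3549 normalized counts with TGF-β1 alone and from 1742 to 2085 with silymarin, with DCN and THY1 at 0 in all libraries. The melanocyte sum ran from 219 to 232 and from 296 to 364 with TYR and SOX10 at 0, the endothelial sum from 121 to 136 and from 208 to 260.5, and the immune sum from 23.3 to 25.6 and from 27.4 to 42.4. The part of these markers in the results was not tested, and in bulk RNA fewer cells of a type and less RNA per cell cannot be told apart.

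By GC content, silymarin replicate 2 differed from the mean of the other silymarin libraries, and the other libraries were not examined in this way. It had the fewest reads, 20240542, of the 5 libraries with recovered reads. Over the members, its log2 value minus the mean of silymarin replicates 1 and 3 was positive in 11 of the 12 genes with under 50% GC in the longest transcript, and negative in 15 of the 16 genes above 50%. ABCA1 and ABCA4 were the exceptions. The Spearman correlation of this deviation with GC content was -0.752 over the 28 members and -0.56 over 16828 tested genes. These are descriptions across genes of shared libraries. The values without this library are given for the named members whose call they change.

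**Figure D1:**
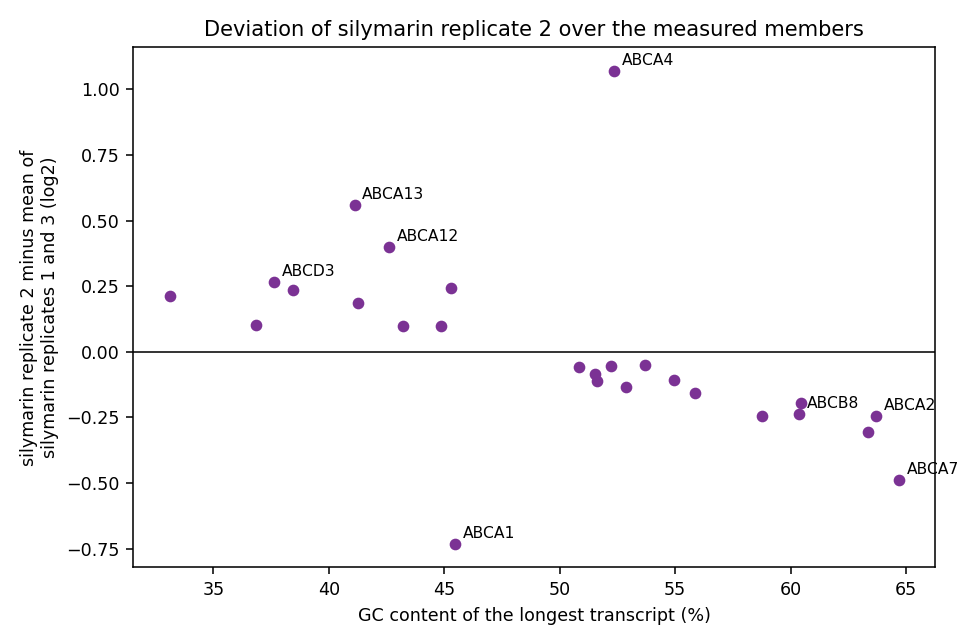
Deviation of silymarin replicate 2 from the mean of silymarin replicates 1 and 3 (vertical axis, log2 of normalized counts + 1) against the GC content of the longest transcript (horizontal axis, %), with 1 point for each of 26 measured members. Points under 50% GC lie above 0 except ABCA1, and points over 50% lie below 0 except ABCA4.

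Among the 28 measured members, 8 rose with silymarin, 7 fell, and 13 did not pass the test. The 8 that rose were ABCC2, ABCA10, ABCC10, ABCB10, ABCG2, ABCC3, ABCD3 and ABCC1. Among those that fell were ABCA12, ABCA4, ABCG1, ABCA2, ABCC4 and ABCC5. The 15 called members made up 53.6% of those measured, and 34.2% of all tested genes were called at an adjusted p under 0.05 (limma with Benjamini-Hochberg adjustment over all tested genes). By direction, 28.6% of the members rose against 16.0% of all tested genes, and 25.0% fell against 18.2%. The groups did not overlap for 18 members (64.3%, against 47.1% of all tested genes), which includes ABCE1 and ABCF2 among those not called. Of these 18, 10 lay higher with silymarin (35.7% of the members, against 23.1% of all tested genes) and 8 lay lower (28.6%, against 24.1%). No test compared these shares with one another.

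The changes were small. The median absolute log2 fold change was 0.27 over the members and 0.18 over all tested genes, and the signed medians were 0.08 and 0.004. ABCA12 alone among the called members had a log2 fold change beyond 1 in size. Summed over all 46 members, normalized counts came to 32776 ± 383 with TGF-β1 alone and 33754 ± 903 with silymarin (SD, n = 3 per group), with overlapping library ranges of 32453 to 33199 and 32733 to 34448. Without silymarin replicate 2, 12 members rose (42.9%, against 20.3% of all tested genes) and 8 fell (28.6%, against 21.5%). With GC content and transcript length corrected for, 13 rose (46.4%, against 21.4% of 16828 tested genes) and 7 fell (25.0%, against 22.2%).

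**Figure D2:**
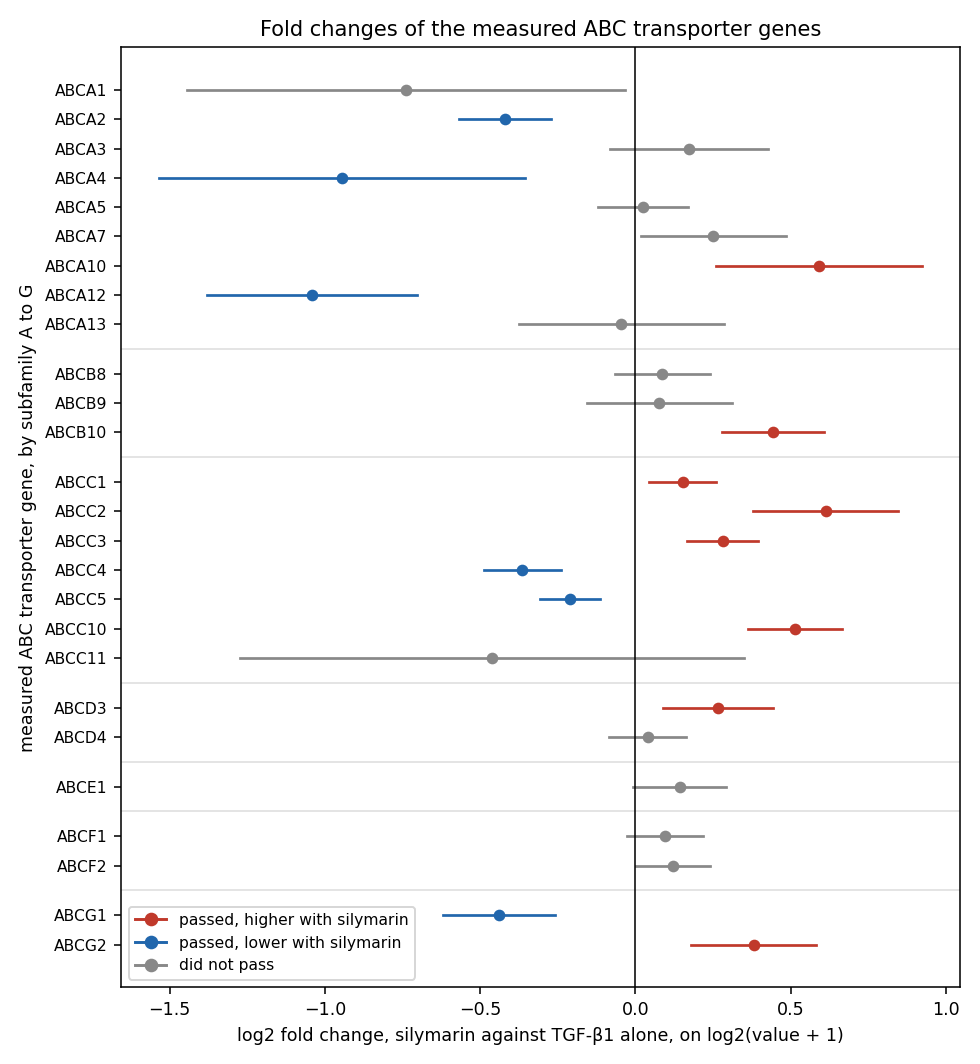
Log2 fold change of each of 26 measured members, silymarin against TGF-β1 alone (horizontal axis, on log2 of normalized counts + 1), grouped by subfamily from A to G on the vertical axis. Points are limma estimates and lines their 95% confidence intervals, with red for the 8 genes that passed as higher, blue for 6 that passed as lower and grey for 12 that did not pass.

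Levels between genes were compared per kb of exon, using the union of annotated exons, whose length can exceed that of the transcripts in these cells. With TGF-β1 alone, the highest level was that of ABCC5 at 638 ± 10.4 normalized counts per kb (SD, n = 3). It was followed by ABCC1 at 428 ± 6.37, ABCC3 at 412 ± 4.93, ABCF1 at 345 ± 4.59 and ABCF2 at 303 ± 11.4. The top 3 places thus belonged to subfamily C, the multidrug resistance-associated proteins. At the other end lay ABCA4 at 6.35 ± 0.49, ABCA1 at 2.04 ± 0.708 and ABCC11 at 1.33 ± 0.179. With silymarin ABCC5 was still first, at 552 ± 13.2 normalized counts per kb, with ABCC3 at 501 ± 30.8 and ABCC1 at 476 ± 20.2. Of the normalized counts of the whole family, ABCC5 took 22.3% ± 0.269 with TGF-β1 alone and 18.7% ± 0.237 with silymarin. ABCC3 took 12.1% ± 0.147 and 14.3% ± 0.527.

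**Figure D3:**
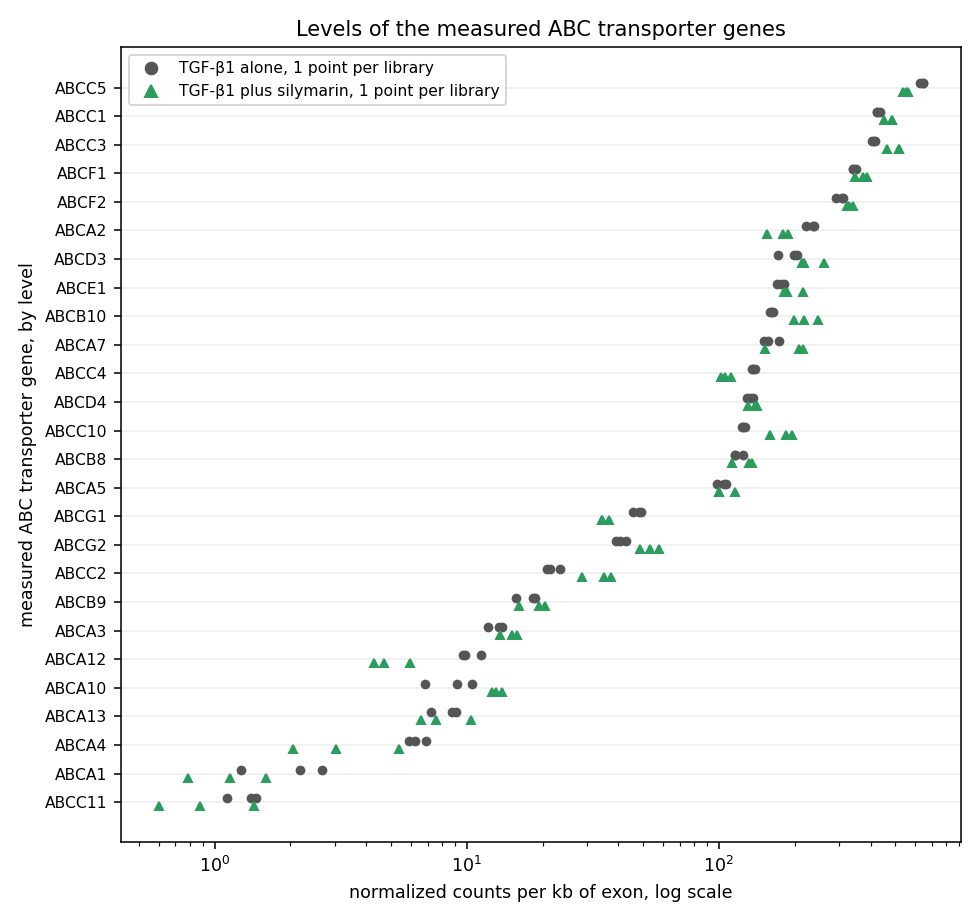
Levels of 26 measured members in normalized counts per kb of exon (horizontal axis, log scale), ordered by the mean with TGF-β1 alone. Each gene has 3 grey circles for the libraries with TGF-β1 alone and 3 green triangles for those with silymarin, and ABCC5 lies highest and ABCC11 lowest.

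Subfamily A holds the lipid transporters, and 9 of its 12 members were measured, of which 1 rose, 3 fell and 5 did not pass, with a median log2 fold change of -0.05. Of all tested genes, 16.0% rose and 18.2% fell, and no subfamily's counts, here or below, were tested against these shares. ABCA12 (ENSG00000144452.10, chromosome 2, 214931542 to 215138428, GRCh38) had 92.8, 107 and 91.0 normalized counts with TGF-β1 alone and 40.5, 56.1 and 44.1 with silymarin. All silymarin libraries lay well under all others. The mean went from 96.9 ± 8.71 to 46.9 ± 8.15 (SD, n = 3), a log2 fold change of -1.04 (SE 0.16, adjusted p = 0.000181). The call held without any 1 library, with log2 fold changes from -1.17 to -0.94.

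ABCA2, a sterol and sphingolipid transporter of late endosomes and lysosomes (chromosome 9, 137007227 to 137028922), was the most abundant member of subfamily A per kb. It had 2549, 2743 and 2722 normalized counts with TGF-β1 alone and 2066, 1783 and 2158 with silymarin. The groups did not overlap, and the log2 fold change was -0.42 (SE 0.068, adjusted p = 0.000334). ABCA4, which moves retinoid-phospholipid adducts in the retina (chromosome 1, 93992835 to 94121132), was far scarcer. Its values were 50.4, 53.5 and 58.7 normalized counts without silymarin and 17.5, 45.9 and 26.0 with it. The silymarin libraries ranged widely, and replicate 2 lay close to the other group. The log2 fold change was -0.95 (SE 0.27, adjusted p = 0.0162). Leaving out TGF-β1 replicate 3 ended the call (adjusted p = 0.0628), as did leaving out silymarin replicate 1 (log2 fold change -0.63, adjusted p = 0.0614) and using DESeq2 on recovered reads (adjusted p = 0.0956).

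ABCA10 was the only member of subfamily A that rose. It lies in a run of 5 neighbouring genes of subfamily A on the minus strand of chromosome 17, between 68867292 and 69327244, in the order ABCA8, ABCA9, ABCA6, ABCA10 and ABCA5. ABCA10 had 57.5, 77.0 and 88.0 normalized counts with TGF-β1 alone and 106, 116 and 109.9 with silymarin, and the groups did not overlap. Its log2 fold change was 0.59 (SE 0.15, adjusted p = 0.00904). Its exons share 3.78% of their bases with exons of ABCA5 on the same strand, so reads there cannot be told apart. ABCA5, a lysosomal lipid transporter, was measured at 1383, 1290.4 and 1402 normalized counts without silymarin and 1314, 1525 and 1316 with it. These ranges overlapped, and the log2 fold change of ABCA5 was 0.03 (95% interval -0.12 to 0.17, adjusted p = 0.811). Per kb, ABCA5 stood at 103 ± 4.54 normalized counts and ABCA10 at 8.82 ± 1.84 with TGF-β1 alone. The other genes of the run were below the threshold for testing, with at most 14.0 normalized counts for ABCA6 and 8.75 for ABCA9, while ABCA8 was listed at 0 in all libraries.

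ABCA7, a phospholipid exporter of the cell surface, did not pass. It had 1259.7, 1310.3 and 1444 normalized counts with TGF-β1 alone and 1748, 1271 and 1812 with silymarin, so that silymarin replicate 2 fell among the libraries of the other group. Its transcript has a GC content of 64.7%. The log2 fold change was 0.25 (95% interval 0.02 to 0.48, adjusted p = 0.0889). It was 0.41 without silymarin replicate 2 (adjusted p = 1.64e-06) and 0.35 with the GC and length correction (adjusted p = 0.000303). ABCA1, which hands cholesterol and phospholipid to apolipoprotein A-I, was near the floor of the test, with 24.8, 14.5 and 30.3 normalized counts against 13.1, 8.92 and 18.2. The groups overlapped, and its log2 fold change of -0.74 had a 95% interval of -1.44 to -0.03 (adjusted p = 0.0993). ABCA1 passed without TGF-β1 replicate 2 (log2 fold change -1.03, adjusted p = 0.0387) and without silymarin replicate 3 (-0.97, adjusted p = 0.0469). ABCA3, the surfactant lipid transporter of the lung, had a log2 fold change of 0.17 (95% interval -0.08 to 0.43), and the very large ABCA13 one of -0.05 (95% interval -0.38 to 0.28). Neither passed, and their groups overlapped.

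In subfamily B, 4 of 9 members were measured, of which ABCB10 rose, none fell and 3 did not pass, with a median log2 fold change of 0.08. ABCB10, a transporter of the inner mitochondrial membrane that takes part in haem synthesis (chromosome 1, 229516582 to 229558695), was also the highest of the subfamily per kb. It had 692, 699.6 and 679.6 normalized counts with TGF-β1 alone and 930.03, 1051 and 848 with silymarin. The control values were tight and all silymarin values were higher. Its log2 fold change was 0.44 (SE 0.076, adjusted p = 0.000494). Reads of its pseudogenes, such as ABCB10P1, may be shared with it.

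ABCB8, a subunit linked to the mitochondrial potassium channel, gave an estimate of 0.09 on the log2 scale (adjusted p = 0.379), or 0.17 without silymarin replicate 2 (adjusted p = 0.00865). ABCB9, a lysosomal peptide transporter, had one of 0.08 (95% interval -0.16 to 0.31). In GENCODE 29, 24.54% of the exon bases of ABCB9 lie opposite exons of AC026362.1, ARL6IP4 and OGFOD2, and whether the counting used strand is not given here.

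The drug pump ABCB1, also called P-glycoprotein or MDR1, was below the threshold, at 0 to 5.06 normalized counts in the 6 libraries. Its neighbour ABCB4, the phosphatidylcholine exporter of bile, ran from 0 to 2.19. ABCB5 ran from 0 to 4.53, and the bile salt export pump ABCB11 was listed at 0 throughout. ABCB6, a porphyrin transporter, was listed at 0 in 5 libraries and had 1.09 in silymarin replicate 1. In GENCODE 29 the annotated gene AC068946.2 covers 54.72% of the exon bases of ABCB6 on the same strand. Of the 12 protein-coding genes that start within 100 kb of ABCB6, 0 were listed at 0, against 14.89% of protein-coding genes in the table. The part of the overlap in the values of ABCB6 was not tested.

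Subfamily C had the most called members, beside 34.2% of all tested genes called, and this difference was not tested. It also holds the 3 members with the highest levels per kb. Of its 12 members 7 were measured, 4 rose, 2 fell and only ABCC11 did not pass, with a median log2 fold change of 0.15. Its summed normalized counts were 16895 ± 151 with TGF-β1 alone and 17391 ± 687 with silymarin (SD, n = 3), and the library ranges overlapped. ABCC2 (MRP2, an apical exporter of conjugates, chromosome 10, 99782640 to 99852594) had the largest rise of any measured member. Its values were 168, 183 and 164 normalized counts without silymarin and 225, 275 and 293 with it. The groups lay apart, and the log2 fold change was 0.61 (SE 0.11, adjusted p = 0.000646).

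ABCC10 (MRP7, chromosome 6, 43427366 to 43450430), an exporter of amphipathic anions and taxanes, had 1032, 1009 and 1003 normalized counts with TGF-β1 alone. With silymarin it had 1488, 1295 and 1578. The lowest silymarin value, in replicate 2, was still above every control. Its log2 fold change of 0.51 (SE 0.07) had the smallest adjusted p of the family (adjusted p = 8.03e-05). ABCC3 (MRP3, a basolateral exporter of glucuronides, chromosome 17, 50634777 to 50692252) went from 3909, 3975 and 4001 normalized counts to 5008, 4478 and 4974. All silymarin values were higher, with a log2 fold change of 0.28 (SE 0.053, adjusted p = 0.00103).

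ABCC1 (MRP1, which exports glutathione, its conjugates and leukotriene C4, chromosome 16, 15949577 to 16143074) rose by the least. It had 3295, 3202 and 3226 normalized counts without silymarin and 3687, 3427 and 3696 with it. The groups did not overlap, but the log2 fold change was 0.15 (SE 0.049, adjusted p = 0.0294). This call of ABCC1 ended when TGF-β1 replicate 1, 2 or 3 was left out (adjusted p = 0.0716, 0.114 and 0.107), and likewise for silymarin replicate 1 or 3 (adjusted p = 0.114 and 0.0878). It was also lost with edgeR and DESeq2 on recovered reads (adjusted p = 0.0963 and 0.149). Without silymarin replicate 2 it held (log2 fold change 0.19, adjusted p = 0.000183).

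ABCC4 and ABCC5 fell. ABCC4 (MRP4, which exports cyclic nucleotides and prostaglandins, chromosome 13, 95019829 to 95301475) had 1185, 1168 and 1204 normalized counts with TGF-β1 alone and 885, 965 and 916 with silymarin. The spread within each group was small beside the gap between them, and the log2 fold change was -0.36 (SE 0.058, adjusted p = 0.000285). ABCC5 (MRP5, an exporter of cyclic nucleotides and haem, chromosome 3, 183919934 to 184018015) had 7382, 7168 and 7364 normalized counts against 6440.2, 6145 and 6352. This most abundant member was lower in 3 of 3 silymarin libraries, with a log2 fold change of -0.21 (SE 0.045, adjusted p = 0.00247). ABCC4 and ABCC5 passed in all 16 other settings tried.

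Promoters of the efflux pumps of subfamily C are shown because members of this subfamily moved in both directions. The 250 bases before a RefSeq start site (GRCh38.p14) are printed 5′ to 3′ for ABCC10 (chr6:43427291-43427540, + strand), which rose, ABCC2 (chr10:99782390-99782639, + strand), which rose, and ABCC4 (chr13:95301452-95301701, - strand), which fell. Capitals mark the letters TGACNNNGC of the antioxidant response element, the site of the stress factor NRF2, and GCGTGNNA of the xenobiotic response element, the site of the aryl hydrocarbon receptor, on either strand.
ABCC10: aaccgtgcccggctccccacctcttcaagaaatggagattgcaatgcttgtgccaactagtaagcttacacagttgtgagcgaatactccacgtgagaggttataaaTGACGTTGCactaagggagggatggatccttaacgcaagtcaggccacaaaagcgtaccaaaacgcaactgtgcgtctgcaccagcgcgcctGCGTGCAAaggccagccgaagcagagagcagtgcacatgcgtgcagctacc
ABCC2: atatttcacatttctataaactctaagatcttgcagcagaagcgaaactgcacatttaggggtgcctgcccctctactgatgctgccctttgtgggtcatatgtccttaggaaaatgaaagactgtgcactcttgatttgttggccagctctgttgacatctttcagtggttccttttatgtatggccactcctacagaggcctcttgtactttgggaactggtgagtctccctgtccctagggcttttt
ABCC4: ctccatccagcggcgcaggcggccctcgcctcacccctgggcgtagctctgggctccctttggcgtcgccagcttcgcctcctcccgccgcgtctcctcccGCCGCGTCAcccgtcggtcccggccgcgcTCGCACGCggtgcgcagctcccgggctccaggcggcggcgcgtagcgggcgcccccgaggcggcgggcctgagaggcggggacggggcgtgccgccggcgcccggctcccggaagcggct
The windows of ABCC10 and ABCC4 each held 1 match to both motifs, and that of ABCC2 held neither. The antioxidant letters began 143 bases before the start in ABCC10 and 149 in ABCC4, and the xenobiotic letters 51 and 120 bases before it. A second RefSeq window of ABCC10 held neither motif, nor did that of ABCC5, the other member of this subfamily that fell. No window was available for ABCC1 and ABCC3, which rose. None of the marked stretches overlapped. RefSeq gave 53 start sites for 35 of the 46 members. Of their windows, 16.98% held TGACNNNGC and 9.43% held GCGTGNNA, against 10.91% and 5.94% of the 35116 promoter windows in the table. Windows of a gene can overlap, so they are not independent, and these shares were not tested. The 5 windows with GCGTGNNA belonged to ABCC10, ABCC4 and ABCG2 only. The ABCG2 windows with matches 248 and 198 bases before their starts overlap and hold the same site. Among members with a window, TGACNNNGC stood in 1 of 6 that rose (ABCC10), 2 of 4 that fell (ABCA2 and ABCC4) and 4 of 12 that did not pass. GCGTGNNA stood in 2 that rose (ABCC10 and ABCG2), 1 that fell (ABCC4) and 0 that did not pass. The C/EBP-ATF letters TGATGNAA stood in 1 member, ABCA13, and the LXR direct repeat, GGTCA and AGGTCA with 4 bases between, in 0. These are matches of letters and show no binding.

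ABCC11, known for the variant that sets earwax type, only just met the threshold for testing, with 10.6, 8.16 and 10.1 normalized counts without silymarin and 4.38, 6.37 and 10.4 with it. It did not pass (log2 fold change -0.46, 95% interval -1.27 to 0.35). Just outside the threshold lay ABCA6, which exceeded 10 normalized counts in 1 library. ABCC6, the gene of pseudoxanthoma elasticum, lies beside ABCC1 on chromosome 16 and had 0.884 to 6.07 normalized counts, and reads of its near-identical pseudogenes may be split. The sulfonylurea receptor genes ABCC8 and ABCC9 reached at most 3.62 and 1.73. ABCC12 reached 2.55 and the pseudogene ABCC13 1.01. KCNJ8 and KCNJ11, which encode the channel subunits that pair with ABCC8 and ABCC9, were not measured either.

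**Figure D4:**
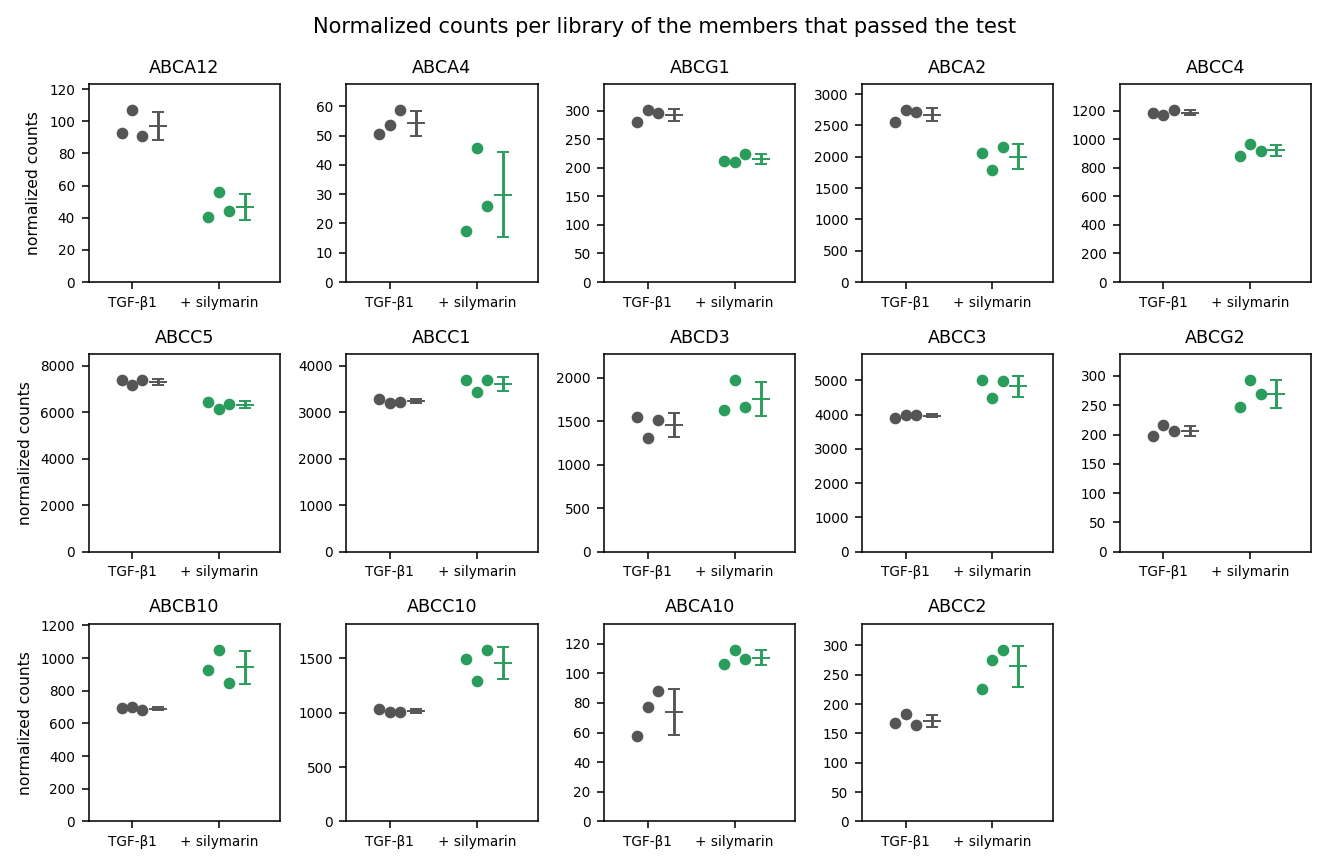
Normalized counts (vertical axes, each from 0) of 14 members that passed the test, ordered from the deepest fall to the largest rise. Grey points are the 3 libraries with TGF-β1 alone and green points the 3 with silymarin, and the bars beside them give the mean and SD. In all 14 panels, which were chosen by the test, the groups do not overlap, as was so for 47.1% of all tested genes.

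Of subfamily D, 3 genes were measured, of which ABCD3 and ABCD4 are described, and ABCD2 was listed at 0 throughout. ABCD3 (PMP70, which imports branched-chain acyl-CoA and bile acid intermediates, chromosome 1, 94418455 to 94518666) was the highest of the subfamily per kb. It had 1551, 1304 and 1514 normalized counts without silymarin and 1625, 1975 and 1659 with it. The highest control lay just under the lowest silymarin value, and silymarin replicate 2 was the highest library. The log2 fold change of ABCD3 was 0.27 (SE 0.082, adjusted p = 0.023), and it did not pass once TGF-β1 replicate 2 was left out (log2 fold change 0.19, adjusted p = 0.132). ABCD4, the lysosomal exporter of cobalamin, had a log2 fold change of 0.04 (95% interval -0.09 to 0.16, adjusted p = 0.641).

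None of the ribosome-associated genes of subfamilies E and F was called, although all their estimates were above 0. ABCE1, which splits ribosomes after termination, had 1132, 1108 and 1071 normalized counts without silymarin and 1169, 1357 and 1139.8 with it. The groups did not overlap, but the log2 fold change of 0.14 had a 95% interval of -0.01 to 0.29 (adjusted p = 0.133). ABCF1, a partner of the initiation factor eIF2, had 1548, 1548 and 1584 normalized counts against 1682, 1567 and 1756, with a log2 fold change of 0.10 (95% interval -0.03 to 0.22, adjusted p = 0.215). ABCF2 had 1214, 1305 and 1282 against 1374, 1344 and 1417, with a log2 fold change of 0.12 (95% interval 0.0022 to 0.24, adjusted p = 0.109). ABCF1 and ABCF2 passed without silymarin replicate 2 (adjusted p = 0.0108 and 0.0199), whereas the log2 fold change of ABCE1 was then 0.0645 (adjusted p = 0.293), and with the GC and length correction ABCE1, ABCF1 and ABCF2 all passed (adjusted p = 0.0391, 0.0114 and 0.00657). In GENCODE 29, 45.82% of the exon bases of ABCF2 also belong to AC021097.2, and 11.89% of those of ABCE1 lie opposite other genes. ABCF3 was listed at 0 in all 6 libraries. So were 4 of the 8 protein-coding genes that start within 100 kb of it, among them AP2M1, a clathrin adaptor subunit used by every cell, against 14.89% of protein-coding genes in the table. The listing of ABCF3 at 0 is therefore given without any statement on its expression.

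Both measured genes of subfamily G passed, in opposite directions. ABCG1, which moves sterols to lipoproteins (chromosome 21, 42199689 to 42297244), had 280.2, 301 and 296 normalized counts with TGF-β1 alone and 211, 210.3 and 225 with silymarin. The groups were well apart, and the log2 fold change was -0.44 (SE 0.083, adjusted p = 0.00114). ABCG2, the breast cancer resistance protein and a urate and porphyrin pump (chromosome 4, 88090264 to 88231322), had 198, 216 and 205 normalized counts against 246, 293 and 269. All silymarin values were higher, with a log2 fold change of 0.38 (SE 0.093, adjusted p = 0.00612). DESeq2 on recovered reads gave ABCG2 an adjusted p of 0.0526. With TGF-β1 alone the levels were 47.8 ± 1.77 normalized counts per kb for ABCG1 and 40.9 ± 1.76 for ABCG2, and with silymarin 35.2 ± 1.35 and 53.4 ± 4.65, so the order of this pair was the other way round. The sterol transporter pair ABCG5 and ABCG8 was listed at 0 in every library, and ABCG4 stayed between 5.10 and 7.79 normalized counts.

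The family members with other symbols showed no called change. TAP1, the first subunit of the antigen peptide transporter, had 2154, 2203 and 2219 normalized counts without silymarin and 2105, 1861 and 2133 with it, and the log2 fold change was -0.11 (adjusted p = 0.168). The row of TAP2 with the highest mean had 19.1 to 27.4 normalized counts in the 6 libraries (log2 fold change -0.11, adjusted p = 0.754), and CFTR was below the threshold. Of 11 genes of peptide loading, 3 rose (B2M, ERAP2 and PSMB10) and 4 fell (PDIA3, CALR, PSMB8 and NLRC5), with a median log2 fold change of 0.08. Of all tested genes, 16.0% rose and 18.2% fell, and the counts of this list were not tested against those shares. Without any 1 of the TGF-β1 replicates 2 of them fell, and without silymarin replicate 2, 5 rose. CALR, a chaperone of class I assembly, fell by 0.58 on the log2 scale.

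Genes that work with the lipid transporters were examined by lists, whose counts were not tested against the 16.0% of all tested genes that rose and the 18.2% that fell. Among 19 measured sterol-efflux partners, 7 rose, 6 fell and 6 did not pass, with a median log2 fold change of -0.08. LPCAT3, a phospholipid-remodelling enzyme and target of the liver X receptors, rose by 0.69 on the log2 scale, from 1869, 1876 and 1941 normalized counts to 3029, 2772 and 3411. MYLIP, another target of those receptors, was among the 6 of this list that fell, and ABCG1 fell too. SMPDL3A and APOE, also among the 6, fell by 0.67 and 0.87, while 7 genes of the list rose. NR1H3, which encodes liver X receptor α, did not pass (log2 fold change -0.11, adjusted p = 0.396). Neither SREBF1 of this list (-0.13, adjusted p = 0.2005) nor ABCA1 (-0.74, adjusted p = 0.0993) passed. STARD4 and NPC2, which carry sterols inside the cell, rose with log2 fold changes of 0.56 and 0.44, while the lipid-transfer gene OSBPL5 fell by 0.96. Of 22 measured epidermal lipid-barrier genes that act beside ABCA12, 6 rose, 7 fell and 9 did not pass, with a median log2 fold change of -0.03. CERS3, the ceramide synthase of ultra-long acyl chains, had 214, 219 and 256 normalized counts without silymarin and 108, 126 and 107 with it (log2 fold change -1.005). NIPAL4 rose by 0.64, from 802 ± 36.2 to 1248 ± 34.6 normalized counts (SD, n = 3). The glucosylceramide synthase gene UGCG was among those that rose.

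Genes linked to the drug and conjugate pumps were also examined by lists, whose counts were not tested against one another or against the 16.0% of all tested genes that rose and the 18.2% that fell. Of the uptake carriers for organic ions 9 were measured, and 0 rose, 5 fell and 4 did not pass, with a median log2 fold change of -0.22. Leaving out silymarin replicate 2 put 1 gene among those that rose, and so did correcting for GC content and length. SLC47A2, a proton-coupled cation exporter grouped with these carriers, had 339, 345 and 307 normalized counts with TGF-β1 alone and 102, 84.1 and 91.7 with silymarin (log2 fold change -1.83, adjusted p = 2.35e-08). The organic anion carriers SLCO3A1 and SLCO2A1 had log2 fold changes of -0.60 and -0.59, and SLC22A18 of -0.42. Among 17 measured genes of glutathione supply and conjugation, 9 rose and 3 fell, with a median log2 fold change of 0.18, and with the GC and length correction 5 fell. GCLC, the catalytic subunit of glutathione synthesis, was among those that rose, and GGT1, which breaks glutathione down outside the cell, fell by 1.44 from 371 ± 37.6 to 135 ± 11.6 normalized counts.

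Of 11 measured xenobiotic sensor genes, 4 rose (PPARD, HIF1A, PPARA and AHRR), 2 fell (ARNT and HNF4A) and 5 did not pass, with a median log2 fold change of 0.12. Of all tested genes, 16.0% rose and 18.2% fell. In the fits without any 1 of the TGF-β1 replicates or silymarin replicate 1, and in edgeR and DESeq2 on recovered reads, 1 fell. Without a filter on low values 1 fell as well. HNF4A was near the floor of the test, with 14.1, 16.3 and 13.1 normalized counts without silymarin. With silymarin HNF4A had 3.28, 5.10 and 11.3 (adjusted p = 0.035). PPARD, a fatty acid receptor, rose by 0.52 and ARNT, the partner of the aryl hydrocarbon receptor, fell by 0.30. For NFE2L2, which encodes NRF2, the log2 fold change was -0.07 (adjusted p = 0.36). The pregnane X receptor gene NR1I2 and its relative NR1I3 were below the threshold.

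The counts of the next 4 lists stand beside 16.0% of all tested genes that rose and 18.2% that fell, and were not tested against these shares. Of 25 measured genes of mitochondrial iron-sulfur and haem metabolism beside ABCB10, 6 rose, 3 fell and 16 did not pass, with a median log2 fold change of 0.04. In that list 5 fell without silymarin replicate 2. ISCA1 and HSPA9, both of iron-sulfur cluster assembly, rose by 0.37 and 0.29, and the scaffold gene ISCU fell by 0.28. Of 22 measured peroxisomal partners of subfamily D, 3 rose, 3 fell and 16 did not pass, with a median of -0.05. All 3 that rose encode long-chain acyl-CoA synthetases, ACSL4 (log2 fold change 0.55), ACSL1 (0.50) and ACSL3 (0.37), and CROT, a peroxisomal carnitine acyltransferase, fell by 0.52. Correcting for GC content and length gave 5 that rose, and leaving out silymarin replicate 2 gave 6 that fell. Of 10 cobalamin genes beside ABCD4, 2 rose (CD320 and MMAB) and 2 fell (MMACHC and TCN2), with a median of -0.009, and without silymarin replicate 2, 5 fell. TCN2 did not pass with TGF-β1 replicate 1 or 3 left out (adjusted p = 0.0756 and 0.0598). Among 24 measured translation genes beside ABCE1 and ABCF1, 7 rose and 3 fell, with a median of 0.09. The start-site factors EIF5 and EIF1 and the termination factor GSPT1 rose by 0.56, 0.40 and 0.36. The translation genes that rose numbered 4 when any TGF-β1 replicate, or silymarin replicate 1, was left out.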

How the data were processed

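RNA was sequenced from 6 HaCaT libraries. Per the labels' protocols, RNA came from a mirVana kit, poly(A) RNA was selected and stranded Illumina mRNA libraries were made. Per the submitters' processing notes, the tools were TopHat2 2.1.1, Subread 1.5.2 with featureCounts, DESeq2, cutadapt 1.15 and bcl2fastq 2.18.12. The sources used here do not give genome build, annotation or strand setting. Values deposited by the authors are a signal, each library's reads per gene over that library's size factor. In each column 100% of values were whole multiples of 1 step, within 1e-06 of the value in reads or of 1 read, whichever was larger. Reads were recovered in this way for the 5 libraries used for count tests. TGF-β1 replicate 3, with a step of 1.01136, met this check as well, but was not taken as recovered and was left out of those tests.

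Genes reaching 10 normalized counts in 3 or more libraries were fitted by limma 3.58.1 (R 4.3.3, trended prior) on log2(value + 1) of the deposited values, on group alone, and p-values were adjusted over all tested genes by Benjamini-Hochberg. Fold changes on this scale understate those of low genes. P-values measure the spread between replicates that the series calls biological. The test recovered known changes in simulated data, which had the same dispersion (0.004) for every gene and no GC shift. The planted changes were larger than most of those called among the members, so the simulation does not bear on the smaller ones. Alternatives were edgeR 4.0.16 (quasi-likelihood) and DESeq2 1.42.0 on recovered reads, TMM and library-size scaling, other filters and pseudocounts, the replicate number as a block, each library left out, and a spline correction for GC content and length. Positions and exon lengths are from GENCODE 29 (GRCh38), which may differ from the authors' annotation, and promoters from RefSeq. Some genes counted in the totals are not reported here by name or drawn. The other measured members are all named, with values by library for called members, for the highest per kb of each subfamily and for some others chosen after their values were seen. Of each partner list up to 4 called genes with the smallest p are named, and others named from the lists were chosen after their values were seen. The members and lists were chosen with earlier results of these data known.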

Additional observations from a re-analysis of the deposited data

How the results depend on the processing

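Among the called members, ABCA2, ABCA10, ABCA12, ABCB10, ABCC2, ABCC3, ABCC4, ABCC5, ABCC10 and ABCG1 passed in the same direction in all 16 other settings, and 5 members, among them ABCA4, ABCC1, ABCD3 and ABCG2, lost the call in at least 1. No called member changed sign. With the GC and length correction 13 members rose, against 8, and over all tested genes 3608 of 16828 rose, against 2764 of 17296. Without single libraries, 6 to 12 members rose, 5 to 8 fell and 12 to 20 were called, and over all tested genes 1969 to 3516 rose, 2421 to 3711 fell and 4390 to 7227 were called. DESeq2 on the reads of 5 libraries called 3709 of all tested genes (1620 higher, 2089 lower), against 5912 (2764 and 3148), and used 1 library fewer. Uncalled log2 fold changes near 0 changed sign when libraries were left out, with ranges of -0.232 to 0.0955 for ABCA13, -0.0463 to 0.0612 for ABCA5 and -0.0012 to 0.180 for ABCB9, and that of ABCA5 was -0.0597 with the GC and length correction. Deviations from the group means of same-numbered libraries correlated at -0.039, 0.042 and 0.023, so the numbers were not taken to pair samples. With the replicate block 5678 of all tested genes were called, 8 members rose and 8 fell, ABCA1 and ABCA7 passed (adjusted p = 0.0463 and 0.0259) and ABCC1 did not (adjusted p = 0.0591). With 3 libraries per group, a member whose interval spans 0 may still have changed within that interval. The cause of these shifts was not tested.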
